A study of Rattus norvegicus with 2 samples.

Results

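The genes described here encode the ligands, receptors, inhibitors and transcription factors of 4 signalling pathways, Wnt, fibroblast growth factor (FGF), Notch and hedgehog, in rat lung. They were chosen by name: a probe set belonged when the platform annotation gave it exactly 1 gene symbol and that symbol was a Wnt, Fzd, Sfrp, Dkk, Fgf, Fgfr, Notch, Jag, Dll or Gli followed by a number, or was 1 of Lrp5, Lrp6, Shh, Ihh, Ptch1, Smo, Hhip, Znrf3 and Axin2. This gave 105 of 31042 probe sets and 73 of 14217 genes. Of the 9 genes listed by full symbol, *Ptch1* was not analysed here. The 73 genes comprised 30 of the Wnt pathway, 27 carrying an FGF name, 9 of Notch and 7 of hedgehog.

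Total RNA of rat lung was hybridised to 2 Affymetrix arrays, 1 for each of 2 experimenters, and the study's title asks how reproducible global expression is. The arrays carry groups of short probes (probe sets), and each probe set has 1 log2 RMA value per array. The labels give no strain, sex, age, treatment or number of animals, so both groups are known only as rat lung handled by experimenter 1 and by experimenter 2, and whether they share a lung or an RNA sample is not given. With 1 array per experimenter no difference has a replicate error or a test; all differences are experimenter 2 minus experimenter 1 on the log2 scale.

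In all 4 pathways a signal made by some cells is read by receptors on themselves or their neighbours. Secreted Wnt proteins bind Frizzled receptors together with Lrp5 or Lrp6 and stabilise beta-catenin, while FGFs bind receptor tyrosine kinases. Notch receptors are cut after contact with a Delta or Jagged ligand on an adjacent cell, and hedgehog ligands release Smoothened to act on Gli transcription factors. In the lung the pathways are best known for bud outgrowth, airway branching, the choice of epithelial cell fate and the formation of alveoli, and they are used again in the repair of the adult organ.

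Across the 73 genes, levels were close on both arrays (Pearson's r = 0.988 across genes, which share the same 2 arrays and are not replicates). For each gene the brightest probe set by mean was used. In 17 of the 73 genes the difference was under 0.1 in size, and in 47 it was under 0.3. The standard deviation of the differences was 0.34 over the 73 genes, wider than the 0.26 over all 14217 genes. On the deposited values 25 genes were higher for experimenter 2, 47 were lower and *Fgf23*, a phosphate-regulating hormone of bone, had the same value of 3.41 on both arrays. The median difference was -0.12, against -0.049 over all 14217 genes. The split depended on the scaling: 34.2% of the 73 were higher as deposited and 45.2% after median centring, against 41.1% and 47.5% of all genes.

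The median over all probe sets, 6.31, is called the mid-level below. A gene was counted as apart when its mean reached the mid-level and its difference was at least 2-fold, or in a second count at least 1.5-fold. Of the 34 pathway genes that reached the mid-level, 1 was at least 2-fold apart, *Znrf3*, or 2.94%, where 0.282% of all 9558 such genes were. At 1.5-fold the count was 2 of 34, *Znrf3* and *Sfrp1*, against 2.79% of all such genes. Among the 39 pathway genes below the mid-level, 4 were at least 1.5-fold apart (*Wnt5a*, *Fgf13*, *Fgf21* and *Wnt16*), or 10.3%, where 4.16% of all 4659 such genes were. These counts are small, and no rate particular to the pathways is read from them.

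**Figure D1:**
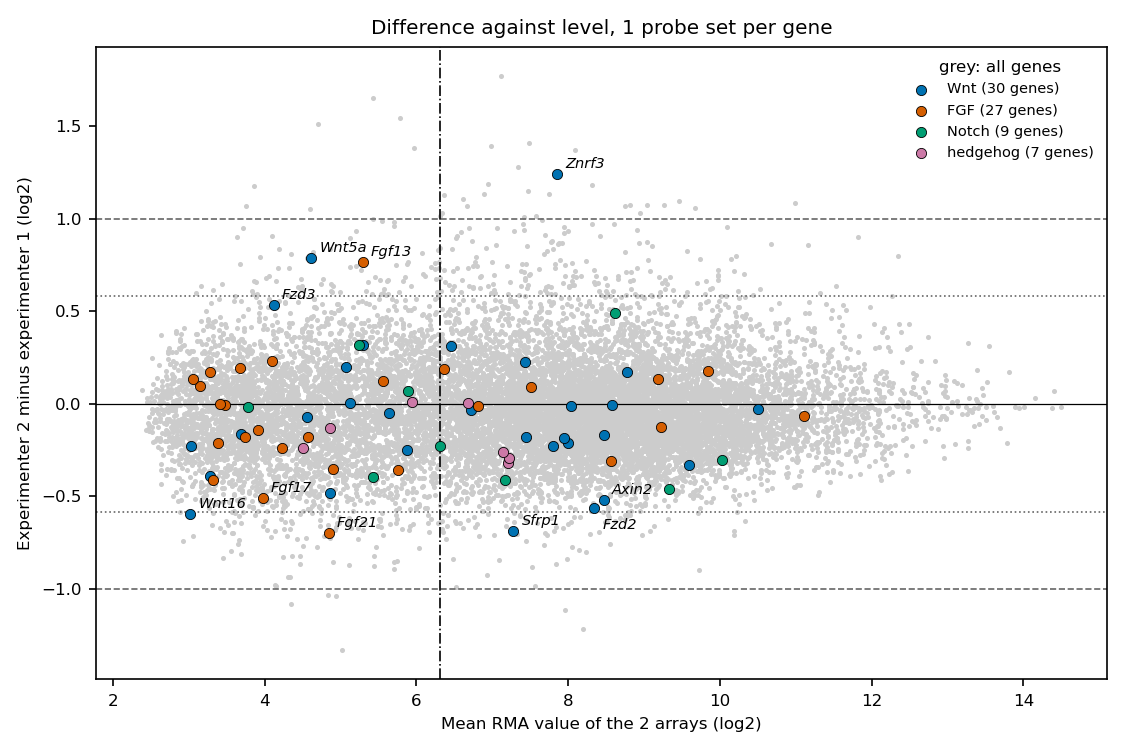
Difference between the arrays (experimenter 2 minus experimenter 1, log2) against the mean of both arrays (log2) for 1 probe set per gene, with all 14217 genes in grey and the 73 pathway genes coloured; dotted lines mark 1.5-fold, dashed lines 2-fold, and the vertical line the mid-level of 6.31. *Znrf3* is the only coloured point beyond 2-fold, and most others lie within the grey band at their level.

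Of the Wnt ligands, 5 of 13 reached the mid-level by their mean. *Wnt4*, a ligand known from kidney and gonad development, measured 8.56 for experimenter 1 and 8.39 for experimenter 2. *Wnt7a* measured 8.05 and 8.04, and *Wnt2*, a mesenchymal ligand of the embryonic lung, measured 6.74 and 6.70. These 2 ligands differed by -0.015 and -0.033, and a second probe set of each also differed little, by -0.022 and -0.084. *Wnt5b* measured 7.92 and 7.69. *Wnt9a* measured 6.30 and 6.62, so it lay just under the median of 6.32 on the array of experimenter 1 and above that of 6.28 on the array of experimenter 2.

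The largest differences among Wnt ligands came from dim probe sets. *Wnt5a*, which signals largely without beta-catenin, measured 4.22 for experimenter 1 and 5.01 for experimenter 2, a 1.72-fold difference. *Wnt16* went the other way at 3.31 and 2.72, and *Wnt2b*, which acts with *Wnt2* in early lung formation, also did at 5.10 and 4.62. All 3 values of experimenter 1 and all 3 of experimenter 2 lay below the array medians, where RMA gives no detection call. *Wnt1*, *Wnt6*, *Wnt8b*, *Wnt10a* and *Wnt11* were below the medians on both arrays too, with differences from -0.39 to 0.20. The other probe sets of *Wnt6* and *Wnt11* differed in the opposite direction to the first, by 0.20 and -0.45. Over the 13 ligands 3 were higher and 10 lower for experimenter 2, with a median difference of -0.16. Of all genes 41.1% were higher, with a median of -0.049. Under the 3 other scalings *Wnt2* and *Wnt7a* turned to the higher side.

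Wnt receptors were mostly on the bright side of the arrays, as most genes were. Of the 9, 7 lay above the median on both, against 9393 of all 14217 genes. *Fzd1* measured 10.52 and 10.49, *Fzd4*, a Frizzled known from blood vessel growth and also the receptor for norrin, 9.76 and 9.42, and *Fzd8* 8.69 and 8.86. *Fzd2* had the widest gap of these 7, with 8.63 on the first array and 8.06 on the second, a 1.48-fold difference just under the 1.5-fold line. The co-receptors lay on opposite sides, with *Lrp5* at 7.54 and 7.36 and *Lrp6* at 7.33 and 7.55. A second probe set of *Lrp5* gave -0.22 beside the -0.18 of the first, so its direction was shared. *Fzd6*, a receptor of planar cell polarity, measured 8.04 and 7.85. *Fzd5* was dim and nearly equal at 5.13 on both arrays (a difference of 0.0015), and *Fzd3* was dim and higher for experimenter 2, at 3.85 and 4.39. The median over the 9 receptors was -0.030.

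The Wnt inhibitors held both of the bright genes past 1.5-fold, and these lay in opposite directions. *Znrf3*, a membrane ubiquitin ligase that removes Frizzled and Lrp6 from the cell surface, measured 7.23 for experimenter 1 and 8.47 for experimenter 2, a 2.37-fold difference that ranked 6 of 9558 from the top. It has a single probe set here, so no other probes bear on it. *Sfrp1*, a secreted protein with a Frizzled-like domain that binds Wnts outside the cell, measured 7.62 and 6.93, a 1.61-fold difference that ranked 29 of 9558 from the bottom. Its other probe sets differed the other way, by 0.22 and 0.33, at means of 3.90 and 3.80. The direction of *Sfrp1* therefore rests on its brightest probe set.

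*Axin2* is a scaffold of the complex that destroys beta-catenin, and like *Znrf3* it is a feedback inhibitor transcribed in response to Wnt. It measured 8.73 for experimenter 1 and 8.21 for experimenter 2, a difference of -0.52 against the 1.24 of *Znrf3*. The 2 feedback inhibitors thus stood on opposite sides of 0. *Sfrp2* measured 8.11 and 7.89, with a second probe set at -0.11 beside -0.21. *Dkk3*, a divergent Dickkopf protein, was nearly equal at 8.58 and 8.57, while its 3 dimmer probe sets differed by -0.22 to -0.37. *Sfrp4*, *Sfrp5* and *Dkk2* were below the medians, at differences of 0.32, -0.070 and -0.23. The other probe set of *Sfrp4* differed by -0.54, opposite to the first. Of the 8 inhibitors 2 were higher and 6 lower, with a median of -0.14, where 41.1% of all genes were higher.

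**Figure D2:**
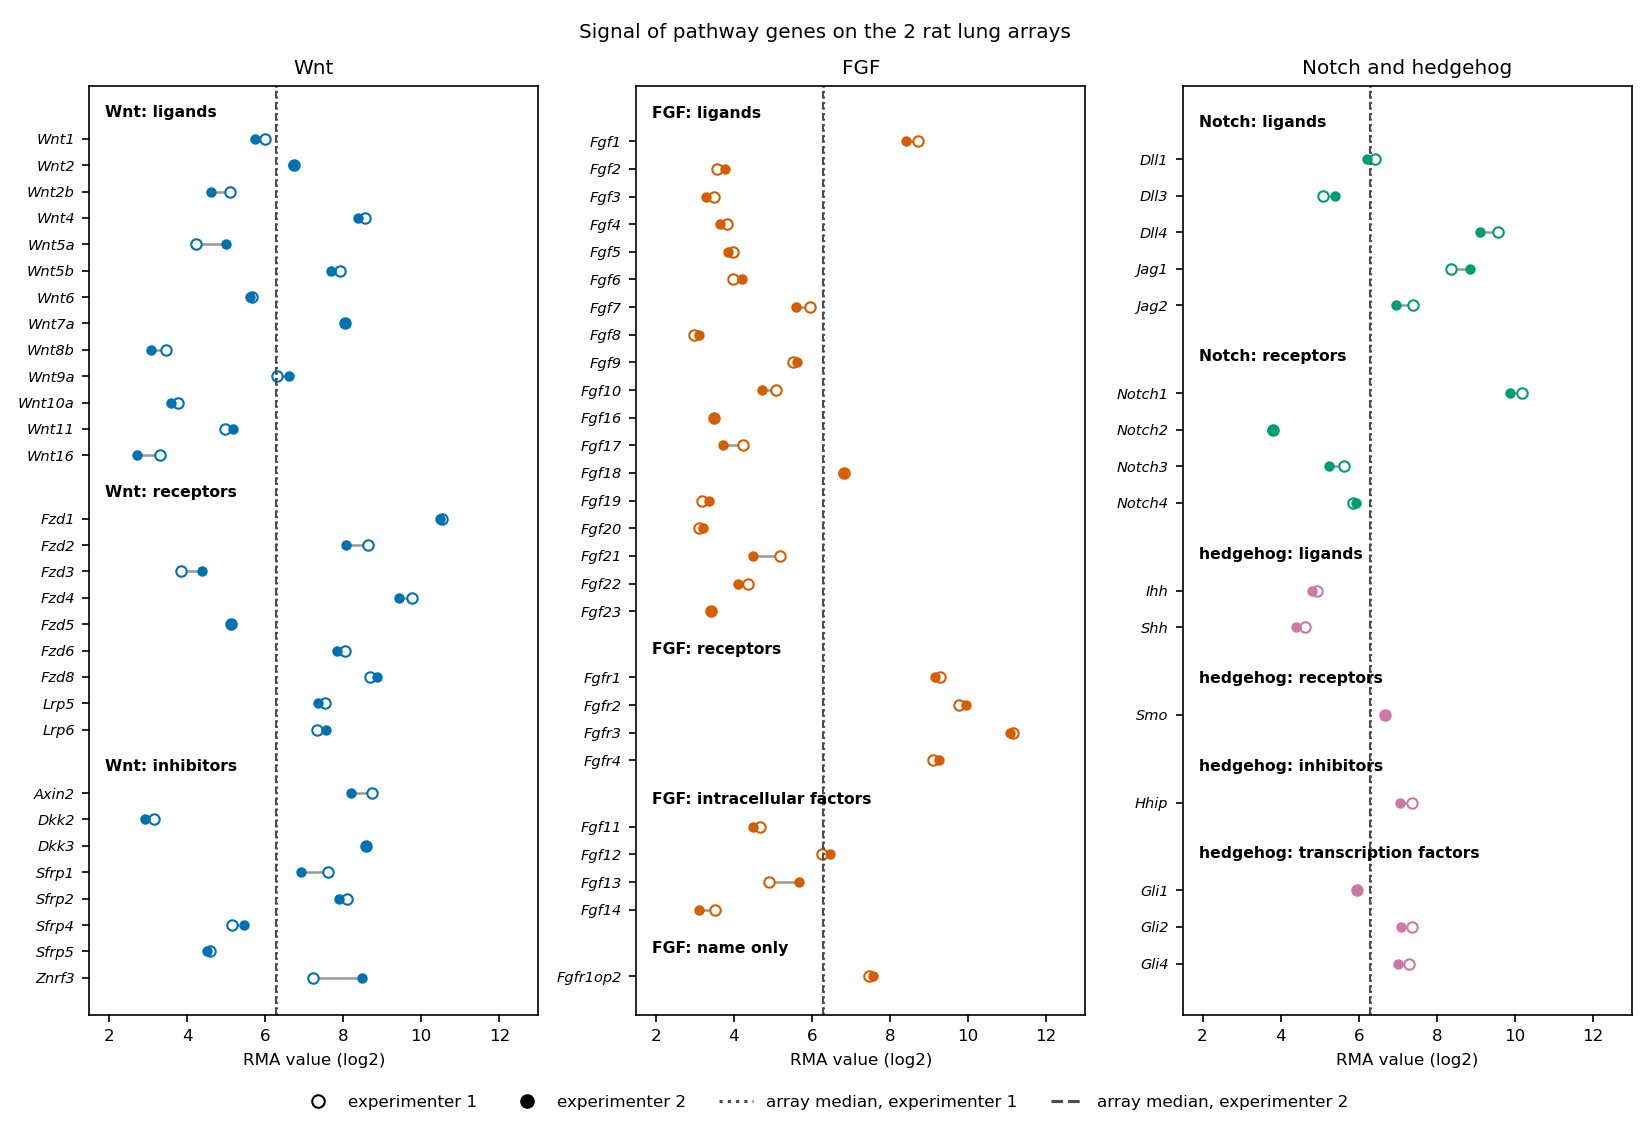
Signal of the 73 genes on each array (RMA value, log2), by pathway and role, with open circles for experimenter 1 and filled circles for experimenter 2 and vertical lines for the array medians of 6.32 and 6.28. All 4 FGF receptors lie right of the lines and 16 of 18 FGF ligands left of them on both arrays; probes differ in affinity, so the horizontal order of different genes is no order of their RNA.

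FGF ligands were mostly dim. Of the 18, 16 lay below the median on both arrays and 2 above it on both, against 4501 and 9393 of all 14217 genes. The 2 were *Fgf1*, acidic FGF, at 8.72 and 8.41, and *Fgf18*, a ligand of alveolar and cartilage development, at 6.82 and 6.81. *Fgf1* had 2 dimmer probe sets that differed by 0.13 and -0.48, on either side of the -0.31 of the first.

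The ligands through which lung mesenchyme acts on epithelium were below the median. *Fgf10*, without which the embryonic lung buds do not form, measured 5.08 for experimenter 1 and 4.73 for experimenter 2. *Fgf7*, keratinocyte growth factor, measured 5.94 and 5.58. *Fgf9*, made by embryonic epithelium and mesothelium, measured 5.51 and 5.63, and its other probe set gave 4.82 and 4.10, so the 2 probe sets disagreed in direction. *Fgf21*, a metabolic hormone made mainly by the liver, had the largest difference of the FGF ligands, at 5.19 and 4.49. Liver markers fixed for comparison (5 of 5 measured) were lower in 4, where 8349 of all 14217 genes were. Their level, summed on the linear scale, was 287 for experimenter 1 and 246 for experimenter 2. Only *Serpina1*, the brightest of these markers, reached the mid-level, with a difference of -0.34. The part of the liver markers in the *Fgf21* value was not tested. *Fgf17* followed at 4.23 and 3.72. The other dim ligands differed by -0.24 to 0.23, among them *Fgf2*, basic FGF, at 3.58 and 3.77.

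The 4 FGF receptors were above the median on both arrays and differed by -0.12 to 0.17 by their brightest probe sets. *Fgfr3* measured 11.14 and 11.07, *Fgfr2*, the epithelial receptor for *Fgf10* and *Fgf7*, 9.76 and 9.94, *Fgfr1* 9.29 and 9.16, and *Fgfr4* 9.11 and 9.25. *Fgfr2* had 5 probe sets, the most of any of the 73 genes. Its second, whose identifier marks probes shared between transcripts of the gene, measured 7.10 for experimenter 1 and 6.22 for experimenter 2, a 1.84-fold difference opposite to the first. The remaining 3 differed by -0.20, -0.15 and 0.093 at means of 4.19, 3.84 and 2.60. For *Fgfr1* and *Fgfr3* the second probe sets kept the direction of the first, at -0.34 and -0.13.

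The FGF homologous factors stay inside the cell and bind voltage-gated sodium channels instead of FGF receptors. *Fgf13* measured 4.91 for experimenter 1 and 5.68 for experimenter 2, a 1.70-fold difference below the mid-level. *Fgf12* measured 6.27 and 6.46 by its brightest probe set. Its dimmest gave 3.43 and 4.73, a 2.45-fold difference and 1 of only 2 past 2-fold among the 105 probe sets (0.37% of all probe sets were), while the probe set between them gave 4.97 and 4.79. *Fgf11* and *Fgf14* differed by -0.18 and -0.41. *Fgfr1op2* carries the receptor's name as the partner of a gene fusion and is not an FGF receptor; it measured 7.47 and 7.56.

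As a group the 27 FGF-named genes had a median difference of -0.014 on the deposited values, and its sign changed with scaling, from 0.020 to 0.041 under the 3 other scalings. Without *Fgfr1op2* the median was -0.042.

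Among the Notch genes that reached the mid-level, the ligands *Jag1*, *Dll4* and *Jag2* differed most between the arrays, in both directions. *Dll4*, a ligand known from arterial and tip endothelial cells, measured 9.56 for experimenter 1 and 9.09 for experimenter 2. Its second probe set gave 8.68 and 8.66, so the difference was -0.46 by the first and -0.022 by the second. *Jag1* was higher for experimenter 2, at 8.37 and 8.86, and *Jag2*, the other Jagged ligand, was lower, at 7.38 and 6.97. *Jag1* and *Jag2* have 1 probe set each. *Dll1* measured 6.43 and 6.20, on either side of the array medians, and *Dll3*, a Delta protein that does not activate Notch in neighbouring cells, 5.08 and 5.40.

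*Notch1* was the only Notch receptor above the median, at 10.18 and 9.88, and its second probe set measured 9.24 and 9.33. With differences of -0.31 and 0.090 these 2 bright probe sets gave no common direction. *Notch3*, the receptor of vascular smooth muscle and pericytes, measured 5.63 and 5.24, *Notch4*, an endothelial receptor, 5.86 and 5.92, and *Notch2* 3.79 and 3.77. A probe set of *Notch4* at nearly the same level went the other way, at 6.03 and 5.72. Markers of smooth muscle and pericytes were lower for experimenter 2 in 5 of 5, with a summed linear level of 6123 and 5354. Endothelial markers were lower in 3 of 5, with 16390 and 16108, where 8349 of all 14217 genes were lower. The part of these markers in the Notch values was not tested. The median over the 9 Notch genes was -0.23 as deposited and -0.20 to -0.18 under the other scalings. It moved more with the choice of probe set, to -0.022 by the second brightest and -0.11 when the probe sets of each gene were averaged.

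Both hedgehog ligands among the 73 genes were below the median. *Dhh*, a hedgehog ligand that the naming rule leaves out, measured 7.11 and 6.91, above the median on both arrays. *Shh*, the ligand of airway epithelium, measured 4.62 for experimenter 1 and 4.38 for experimenter 2, and *Ihh* 4.93 and 4.80. *Smo*, the membrane protein that carries the signal into the cell, was nearly equal at 6.67 and 6.68. *Hhip*, a membrane protein that binds hedgehog ligands and limits their reach, measured 7.37 and 7.05. Among the transcription factors *Gli2* measured 7.37 and 7.07 and *Gli1*, itself a target of the pathway, 5.94 and 5.95; *Gli4*, a zinc finger protein of the same name that is not an established hedgehog effector, measured 7.28 and 7.01. *Hhip*, like *Gli1*, is a target of the pathway, and the 2 differed by -0.32 and 0.0093. The median over the 7 genes was -0.24, and -0.21 to -0.19 under the other scalings. All 7 have 1 probe set except *Smo*, whose second gave -0.049.

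Set side by side over the 4 pathways, 13 of 18 receptors, 6 of 9 inhibitors and 11 of 38 ligands reached the mid-level by their means, where 67.2% of all genes did. This is a position on each array and not a comparison of RNA amounts, since probe affinities differ between genes. The receptors below the median were *Fzd3*, *Fzd5*, *Notch2*, *Notch3* and *Notch4*.

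The array differences of the 3 roles overlapped widely. Ligands had a median of -0.15, ranging from -0.70 to 0.79, inhibitors -0.21, from -0.69 to 1.24, and receptors -0.025, from -0.56 to 0.53. The receptor median turned positive under the other scalings, at 0.0092 to 0.024, while those of ligands and inhibitors stayed below 0, at -0.12 to -0.088 and -0.18 to -0.15. Higher values for experimenter 2 were found in 8 of 18 receptors, 11 of 38 ligands and 2 of 9 inhibitors on the deposited values, where 41.1% of all genes were higher. After median centring the counts were 10, 16 and 3, beside 47.5% of all genes. No difference between roles was tested.

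**Figure D3:**
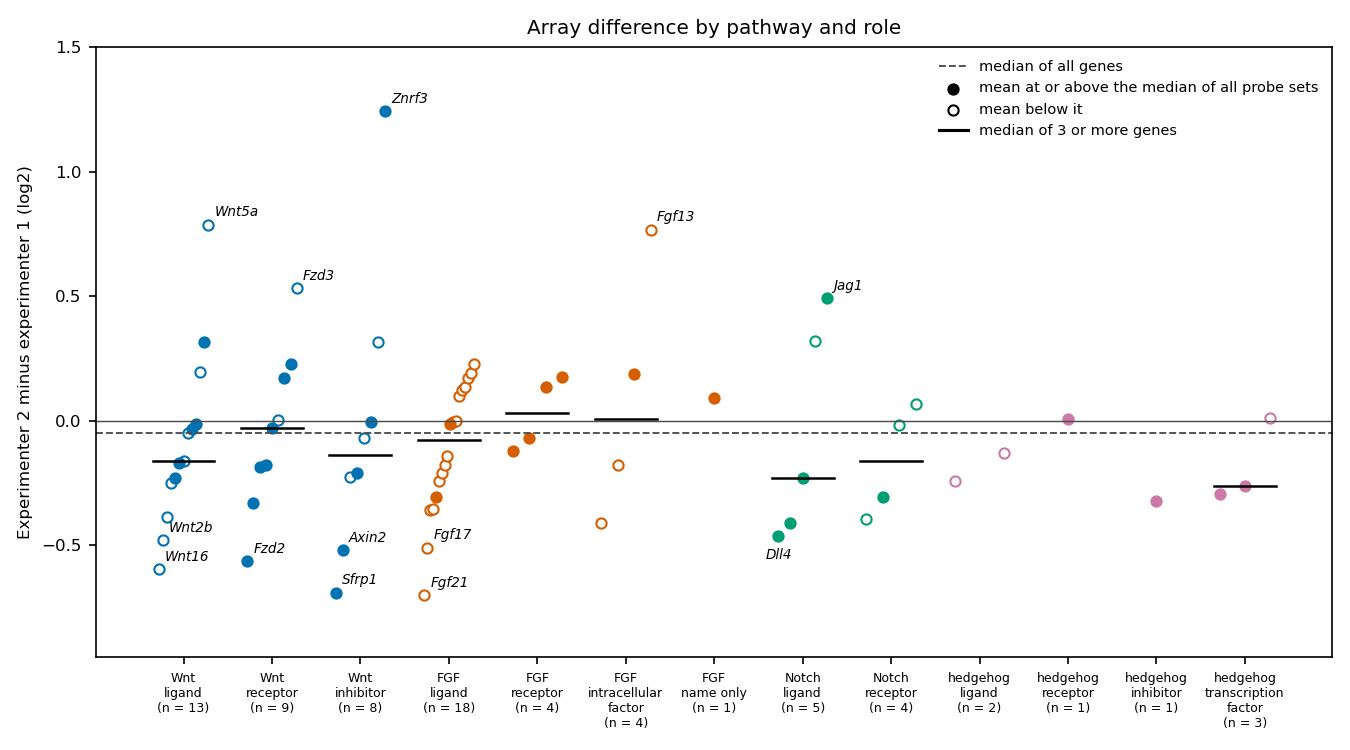
Difference between the arrays (experimenter 2 minus experimenter 1, log2) for each of the 73 genes by pathway and role, with filled points for genes that reached the mid-level, open points for those below it, a bar at the median of each class of 3 or more genes and a dashed line at the median of all genes (-0.049). *Znrf3* at 1.24 stands highest, *Fgf21* at -0.70 lowest, and FGF receptors span the narrowest range among the classes of 4 or more.

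A gene can have several probe sets, which read different stretches of its transcripts. Of the 73 genes 23 had more than 1, and in these the 2 brightest shared a direction in 10 and had opposite directions in 13. Over all 4525 genes with several probe sets the direction was shared in 53.3%. In 8 genes both probe sets reached the mid-level, and 6 shared a direction: *Lrp5*, *Sfrp2*, *Wnt2*, *Fgfr1*, *Fgfr3* and *Dll4*. The 2 that did not were *Fgfr2* and *Notch1*. Over all 2094 genes with both probe sets at the mid-level or above, the direction was shared in 53.3%. With 8 genes, no better agreement is read from this. Among single probe sets 9 of 105 were at least 1.5-fold apart, or 8.57%, against 4.35% of all 31042.

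**Figure D4:**
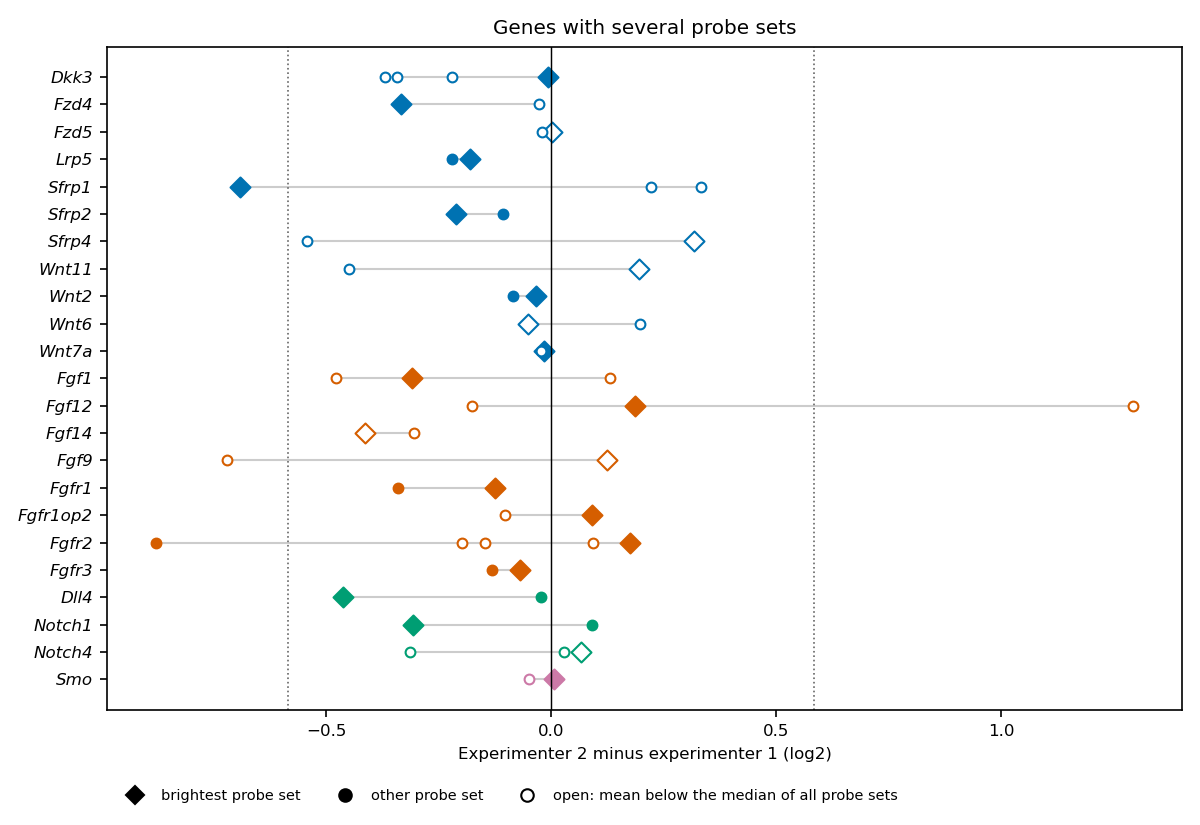
Difference between the arrays (experimenter 2 minus experimenter 1, log2) for every probe set of the 23 genes with more than 1, with diamonds for the brightest and circles for the others; open symbols have means below the mid-level and dotted lines mark 1.5-fold. *Lrp5*, *Wnt7a* and *Fgfr3* have their probe sets close together, whereas those of *Fgfr2*, *Fgf12* and *Sfrp1* spread to both sides of 0.

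Other genes of the same pathways, from lists drawn up with earlier results of these data known, were read in the same way. Of 40 further Wnt genes listed 32 had a value and 23 reached the mid-level; 1 of these was at least 1.5-fold apart. It was *Ryk*, a Wnt receptor related to tyrosine kinases, at 8.99 for experimenter 1 and 8.37 for experimenter 2, with a second probe set at 7.75 and 7.48. *Ctnnb1*, beta-catenin, measured 12.50 and 12.63, and *Wif1*, a secreted Wnt inhibitor, 10.93 and 11.42. A second probe set of *Ctnnb1* went the other way, at 12.16 and 11.90. None of the 15 FGF, 21 Notch and 4 hedgehog genes that reached the mid-level was 1.5-fold apart, and with 2.79% of all such genes past that line, counts this small say nothing particular of these lists. *Sufu*, which restrains Gli proteins, differed by -0.64 but was below it, at 5.44 and 4.80. The lists had medians of -0.061 for Wnt (32 genes), 0.0024 for FGF (18), 0.020 for Notch (25) and -0.20 for hedgehog (10). Of these 10 hedgehog genes 9 were lower, where 8349 of all 14217 genes were, and only 4 of the 10 reached the mid-level.

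Of the other listed genes, *Flrt3*, a membrane protein that binds FGF receptors, measured 10.15 and 10.17, *Adam17*, a protease that can cut Notch, 10.99 and 10.80, and *Boc*, a hedgehog co-receptor, 8.34 and 8.01.

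Target genes of the pathways, most of them named after their values were seen, lay on both sides of 0 for FGF, Notch and Wnt. Among FGF targets *Dusp6*, a phosphatase of ERK, measured 10.75 and 10.98 (10.80 and 10.76 by its second probe set). *Spry2*, a feedback inhibitor of receptor tyrosine kinases, measured 9.92 and 9.99, and its relative *Spry1* 9.80 and 9.58. *Etv1*, *Etv4* and *Etv5*, also of the FGF list, differed by 0.17, -0.32 and -0.13 by their brightest probe sets. Other probe sets of *Etv1* lay on both sides of 0. Among Notch targets *Hes1*, a transcriptional repressor, measured 9.85 and 9.87, *Hey1* 10.56 and 10.73 and *Nrarp*, a feedback inhibitor, 8.73 and 8.67. A second probe set of *Nrarp* that reached the mid-level had a wider gap, at 7.05 and 6.58. *Foxf1*, a mesenchymal transcription factor downstream of hedgehog in the lung, measured 9.90 and 9.91 by its brightest probe set and 9.09 and 8.76 by another. Of the Wnt targets *Lef1*, a partner of beta-catenin, measured 7.54 and 7.58 by its brightest probe set and 7.19 and 6.54 by another that reached the mid-level, so the 2 did not share a direction. *Nkd1*, a feedback inhibitor, measured 9.91 and 9.60, and its second probe set went the other way at 8.40 and 8.65.

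Marker genes bore out the labelled tissue on both arrays. *Sftpc* of alveolar type 2 cells, *Scgb1a1* of club cells and *Ager* of alveolar type 1 cells all lay above 12 on each. The mesothelial markers were higher for experimenter 2 in 4 of 4 measured (summed linear level 434 and 572), where 41.1% of all genes were. Their differences ran from 0.083 for *Msln*, the brightest of them, to 0.85 for *Gpm6a*, and *Wt1* among them lay below the mid-level. Dimmer probe sets of *Lrrn4* differed by -0.24 and 0.074, and that of *Wt1* by -0.093. The peripheral nerve markers were lower in 3 of 3 (625 and 410), where 8349 of all 14217 genes were. Only *Mbp* of these reached the mid-level, and its dimmer probe sets differed by -0.33 and 0.070. The gap between the 3′ and 5′ probe sets of *Actb*, which grows as labelled RNA shortens, was 2.15 and 2.71. That of *Gapdh* was 0.30 and 0.26. The part of these markers and gaps in the values of the pathway genes was not tested. In a whole-lung sample, fewer cells of a type and less RNA per cell cannot be told apart.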

How the data were processed

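Expression was measured on 2 arrays of rat lung RNA, 1 per experimenter. The authors deposited RMA values, per the submitters' processing notes; for its version, the arrays normalized together and the log base the sources used here give nothing. The deposited values were taken as log2 from their range. RMA corrects background, forces a common distribution on the arrays and summarises each probe set, so it hides differences in total RNA and gives no detection calls. Of 31099 probe sets 57 were controls; 20826 of the other 31042 had 1 gene symbol, 436 several and 9780 none. Entrez identifiers gave a current symbol of assembly GRCr8 for 20758, including all 105 described; no symbol of these changed.

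A gene took the value of its brightest probe set. Folds are 2 to the power of the log2 difference. The number of arrays limits the precision, no p-value is possible with 1 array per experimenter, and fixed folds of 2 and 1.5 stand in for a test. The pathway genes, roles and lists were chosen with earlier results of these data known. Named were genes at least 1.5-fold apart, the brightest of each pathway and role, the largest differences of each pathway that reached the mid-level (the median over all probe sets), and genes with several bright probe sets. Alternatives were 3 scalings (median centring, loess with fraction 0.3, quantile), other probe set choices, symbols and level filters. Python 3.11.15, numpy 2.4.6, pandas 2.3.3, scipy 1.17.1, statsmodels 0.14.6 and matplotlib 3.10.9 were used, and the code was tested on simulated data. No protein or promoter sequence is shown, because the arrays measured transcript signal alone.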

Additional observations from a re-analysis of the deposited data

How the results depend on the processing

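No paired analysis was possible because there is only 1 array for each experimenter, which also leaves no array to leave out. *Znrf3* was the only pathway gene at least 2-fold apart under every alternative that kept it; with genes in the upper 25% of levels the count was 0, since its mean is below that level. The count at 1.5-fold was 6 with no filter on level, 1 with the mean over probe sets and 0 in the upper 25%, and 2 under the other alternatives. With the second brightest probe sets these 2 were *Znrf3* and *Fgfr2* (-0.88), since *Sfrp1* turned to 0.22. Over the alternatives that cover all 73 genes, 53 did not reverse the direction of their difference. *Fgf23*, equal on both arrays as deposited, had no direction to reverse and was counted among the 53. The other 20 turned under at least 1: 7 under another scaling, all with differences no larger than 0.033, and 13 with another probe set choice. Only the 23 genes with several probe sets could turn with another probe set, and the 50 with 1 could not. The 53 is therefore no measure of how well probe sets agree. The medians of all 73 genes and of Wnt, Notch, hedgehog, ligand and inhibitor genes stayed below 0 under every alternative that gave a value, and those of FGF genes and receptors did not. The deposited values of all genes had a median of -0.049 themselves, so a median below 0 does not set a group apart. With the second brightest probe sets the Notch median, -0.022, was nearer 0 than that. The upper 25% held no hedgehog gene. Medians over genes that reached the mid-level were added after seeing the data: -0.15 for all 34, of which 10 were higher for experimenter 2. Low signal limits the dim ligands, since no detection calls were used.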
